A study of Mus musculus with 234 samples.

Results

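Dim cardiomyocytes (CMs) of homozygous CAG-BAG3P209L mice, picked by hand for weak eGFP fluorescence, differed widely in how much transgene RNA they held, and they were divided by it. The transgene level of a cell was the sum of its counts on the features hBAG (human BAG3) and BAG-eGFP, scaled to CPM, counts per 1000000 counts of the cell. Of 68 dim homozygous CMs, 66 had at least 1000 genes detected; 36 of them held 50 CPM or more and are called transgene-rich, 16 held under 5 CPM and are called transgene-poor, and 14 lay in between. The rich and poor cells make up 52 of the 234 cells of the series. The remaining 2 dim cells, both from mouse M116, had 400 and 428 genes detected and 955 and 978 counts, and were left out.

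The transgene is a human BAG3 with the amino acid change P209L, fused to eGFP and driven by the ubiquitous CAG promoter. It was inserted into the Rosa26 locus of a single embryonic stem cell clone behind a floxed stop cassette, which a PGK-Cre allele removes. Mice described as homozygous carry the floxed allele on both chromosomes, with the stop cassette deleted on one or both, and all groups came from a mixed 129S6/SvEvTac, C57BL/6Ncr and CD-1 background, although the labels give C57BL/6 for the controls. The mice were 2 weeks old. Dim and bright CMs came from homozygous mice M25 and M116, and control CMs came from mice M26 and M73, which the labels call wt; the study's methods define controls as siblings that are wild type or carry either the Cre or a floxed transgene allele. CMs were isolated by perfusion of the heart and picked singly by hand, and a fluorescence macroscope served to class them as dim or bright. Per the labels, cells that gave little cDNA were not sequenced. Cells of a heterozygous mouse were not analysed here.

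BAG3 is a co-chaperone that links the small heat shock protein HSPB8 and the chaperone HSPA8 to client proteins, and with the ubiquitin ligase STUB1 it directs damaged clients such as filamin C to autophagosomes. This route, chaperone-assisted selective autophagy, clears proteins that are unfolded by mechanical load in the Z-discs of striated muscle. The P209L change in human BAG3 causes a severe childhood myopathy with restrictive cardiomyopathy and protein aggregates.

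Mouse M116 supplied most of the rich cells and mouse M25 most of the poor ones. Of the 36 rich cells, 34 came from mouse M116 and 2 from mouse M25, and of the 16 poor cells, 6 came from mouse M116 and 10 from mouse M25. The intermediate cells were split into 6 from mouse M25 and 8 from mouse M116. A comparison of all rich with all poor cells is therefore largely one between mice, so the sums of named genes and the medians of gene lists between rich and poor cells are also given by mouse. The rich and poor cells of mouse M116 lay on the same 2 plates, with 22 rich and 3 poor cells on one and 12 rich and 3 poor cells on the other.

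The levels of the transgene chose the cells and are given as a description. In the 34 rich cells of mouse M116 the transgene level ran from 57.1 to 724 CPM, with a median of 253 CPM, and the 2 rich cells of mouse M25 held 51.6 and 84.5 CPM. In the 6 poor cells of mouse M116 the lowest, median and highest levels were 0, 0.576 and 4.73 CPM, and in the 10 poor cells of mouse M25 they were 0, 0.416 and 2.68 CPM. The highest of the 28 control CMs held 4.42 CPM, and 1 poor cell lay above it. In the summed counts the transgene reached 0.798 and 1.33 CPM in the poor cells of mice M25 and M116, against 0.409 and 0.488 CPM in the control cells of mice M26 and M73. Next to the limits lay a poor cell with 4.73 CPM and an intermediate one with 5.56 CPM, and an intermediate cell with 45.1 CPM and a rich one with 51.6 CPM. In mouse M116, 31 of the 34 rich cells held at least as much transgene RNA as the lowest of 56 bright CMs (92.3 CPM), and 6 held at least the median of the bright CMs (438 CPM). In mouse M25 the lowest of 20 bright CMs held 4.32 CPM and the next 72.7 CPM, so that the rich cell with 51.6 CPM lay above 1 bright CM, and both rich cells lay below the bright median (390 CPM). Rich dim cells therefore overlapped bright cells in transgene RNA although they had been picked as dim.

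**Figure D1:**
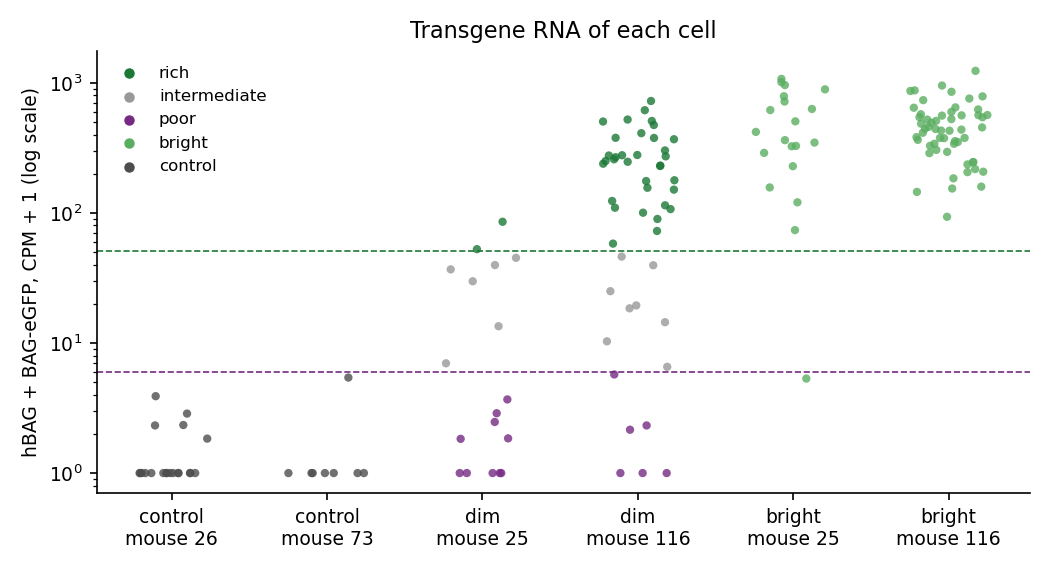
Transgene level of each cell (hBAG plus BAG-eGFP, CPM + 1, log scale) by mouse and brightness, each point being 1 cell; the dashed lines mark 50 CPM and 5 CPM. The 36 rich cells reach up to 724 CPM and overlap the bright cells, and the 16 poor cells end at 4.73 CPM, near the highest control cell at 4.42 CPM.

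The 2 transgene features are described separately in the same way. Both had a count in 35 of the 36 rich cells, which were chosen for their sum, and 1 rich cell had hBAG alone. Of the 14 intermediate cells 10 had both features and 4 had BAG-eGFP alone. In the poor cells 8 of 16 had no transgene count, and the 16 cells held 7 hBAG and 7 BAG-eGFP counts in all, against 3476 and 3350 in the rich cells. The share of hBAG in the transgene counts of a rich cell had a median of 54.5% and a range of 1.18% to 100%. Over the 48 dim cells of mouse M116, rich, poor and intermediate, which share plates and differ in depth, hBAG and BAG-eGFP had a Spearman correlation of 0.71. The sources used here do not say which stretch of the transgene each feature covers.

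Rich and poor cells overlapped in depth in both mice, and in CM markers in mouse M116 only. Rich cells held 394311 to 1207740 counts and poor cells 547160 to 1200900, and summed over the cells of a mouse this gave 2311978 (M25) and 24197980 (M116) counts for rich cells and 10030881 and 4526102 for poor cells. The summed level of 8 CM markers, among them *Myh6* and *Tnnt2*, had a median of 78715 CPM in rich and 76428 CPM in poor cells of mouse M116. In mouse M25 the 2 rich cells held 66633 and 69542 CPM, below the lowest of the 10 poor cells (73546 CPM, median 86333 CPM). The median number of genes detected in mouse M116 was 5565.5 in rich and 5045 in poor cells, and in mouse M25 it was 8617 over 2 rich cells and 5952 over 10 poor cells. After thinning each cell to 400000 counts, which left out 1 rich cell, the medians were 5246 and 4602 in mouse M116 and 7860.5 and 5414 in mouse M25.

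Wells that hold RNA of endothelial cells were found among the rich but not among the poor cells. The markers *Pecam1*, *Cdh5*, *Kdr*, *Tie1*, *Egfl7* and *Ly6c1* together reached 100 CPM, a limit chosen after the data had been seen, in 10 of 36 rich wells and in 0 of 16 poor wells. Both rich wells of mouse M25 were among them, with 513 and 994 CPM, as were 8 of the 34 rich wells of mouse M116, with up to 1428 CPM. The highest poor well held 33.5 CPM. Such wells also occurred among intermediate cells (5 of 14), bright cells (3 of 20 in mouse M25 and 11 of 56 in mouse M116) and control cells (1 of 20 in mouse M26 and 4 of 8 in mouse M73). One of the rich wells of mouse M25 also held 5237 CPM of erythroid markers. The wells with endothelial RNA contained CM markers as well, and whether a whole endothelial cell or only its RNA had been picked with the CM cannot be told apart. In the poor sum of mouse M116 *Pecam1*, *Tie1* and *Ly6c1* were at 0. Fibroblast markers summed to at most 2349 CPM in a rich and 581 CPM in a poor well, and macrophage markers to at most 499 and 1.32 CPM.

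**Figure D2:**
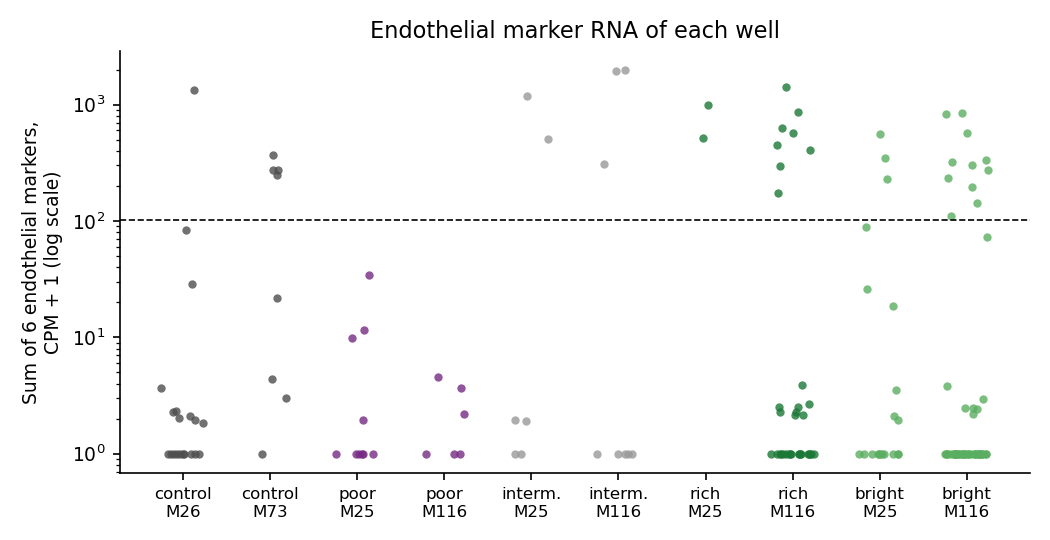
Summed level of 6 endothelial markers in each well (CPM + 1, log scale) by cell class and mouse, each point being 1 well; the dashed line marks 100 CPM. Both rich wells of mouse M25 and 8 of 34 rich wells of mouse M116 lie above the line, and no poor well does.

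With each mouse as the replicate, no gene passed the threshold between rich and poor cells. Counts were summed over the rich and over the poor cells of each mouse, and these 4 sums were compared with edgeR's quasi-likelihood test. Of 10178 genes tested, 0 passed an adjusted p of 0.05 (0%), the smallest adjusted p from edgeR being 0.577, and 600 (5.9%) had an unadjusted p under 0.05. DESeq2 on the same sums called 236 of 17877 genes (1.32%), 224 of them higher in rich cells. With 2 mice in a class the p-values rest on the spread between 2 animals, and the transgene features were not among the genes tested. The median log2 fold change of all genes was -0.01, and it was 0.26 when the sums were scaled by library size alone instead of by edgeR's TMM factors, so that differences below are best read against the median of all genes.

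When the mouse was added to the model as a block, 519 genes (5.1%) had an unadjusted p under 0.05 and 35 genes (0.344%) passed in edgeR, 34 higher (0.334%) and 1 lower (0.00983%) in rich cells, and 4 of the 34 (*Fabp4*, *Ly6c1*, *Pecam1* and *Cdh5*) are on the list of 8 endothelial markers. *Fabp4*, a fatty acid binding protein of capillary endothelium, had 1359 and 109 CPM in the rich sums of mice M25 and M116 and 11.7 and 0.663 CPM in the poor sums, a log2 fold change of 6.67 in the blocked fit (adjusted p = 6.8e-07 from edgeR). *Gpihbp1*, which carries lipoprotein lipase across capillary walls, had 346 and 39.9 CPM in rich and 0.299 and 0 CPM in poor sums. *Ptprb*, an endothelial phosphatase, had 136 and 37.7 CPM in rich and 0.0997 and 0 CPM in poor sums. All 3 were thus higher in the rich sum of either mouse.

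Of the 10 higher genes with the largest log2 fold change, 7 had no count in any poor cell. The bounds below pool reads over cells and mice, and these 7 genes entered the fit through the rich sums alone. Against a floor of 3 counts over all poor cells they were at least 99.4-fold (*Btnl9*), 118-fold (*Cldn5*, a tight junction protein of endothelium), 131-fold (*Gimap6*), 159-fold (*Tmem204*), 185-fold (*Kitl*, the ligand of the receptor KIT), 93.9-fold (*Lrrc8c*) and 101-fold (*Jcad*) higher in rich cells. *Postn*, a matrix protein of fibroblasts, was the tenth, with 109 and 15.2 CPM in rich and 0.0997 and 0 CPM in poor sums. *Fabp4* and *Gpihbp1*, which had no part in the choice of the wells with endothelial RNA, had 99.2% and 99.8% of their counts in the 34 rich cells of mouse M116 in the 8 wells so chosen. Without these wells, 17 of the 34 higher genes lay under 1 CPM in the remaining rich cells of mouse M116. Of the 8 endothelial markers, 8 had a positive fold change in the fit without a block, with a median of 7.31, or 6.50 with *Tie1*, which had no count in a poor cell, at its bound; 0 of the 8 passed in edgeR without the block, 7 reached an unadjusted p under 0.05, and DESeq2 called 7.

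Without the wells that hold endothelial RNA no rich cell of mouse M25 was left, and 3 of 11843 genes passed in edgeR, all lower in rich cells (0.0253%). They were *Nppa*, which encodes atrial natriuretic peptide (log2 fold change -4.23), *Acta1*, the skeletal isoform of alpha-actin (-3.02), and *Tmem17*, a transmembrane protein of the ciliary transition zone. The rich class then rests on mouse M116 alone, whose spread is assumed to be like that of the poor sums. The sums of the 2 mice disagreed on the first gene. *Nppa* had 66.6 and 9.63 CPM in the rich sums of mice M25 and M116 and 389 and 0.884 CPM in the poor sums, so that the rich sum was lower in mouse M25 and higher in mouse M116. The poor sum of mouse M25 rested on 2 of 10 cells, with 1442 and 1840 CPM, and the median of *Nppa* in the single cells of that mouse was 66.9 CPM in rich and 1.07 CPM in poor cells. The difference of the means of log2(CPM + 1), rich minus poor, was 2.65 for mouse M25 and 0.22 for mouse M116, and on the 2 plates of mouse M116 it was 0.74 and -0.48. In mouse M116 *Nppa* had a count in 12 of 34 rich and 3 of 6 poor cells, with medians of 0 and 0.532 CPM, so that its single cells showed no clear order. *Acta1* had 131 and 39.1 CPM in rich and 144 and 409 CPM in poor sums, so that the difference lay within mouse M116. In single cells of mouse M116 *Acta1* ran from 0 to 351 CPM with a median of 1.29 CPM in rich cells, and from 1.15 to 2020 CPM with a median of 257 CPM in poor cells, so that the ranges overlapped. In mouse M25 the difference of the means of log2(CPM + 1), rich minus poor, was 2.25, opposite to the -4.33 of mouse M116.

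*Tmem17* was the gene that was lower in rich cells in the fit with the mouse as a block, and it was absent from all 36 rich cells. It had 16.2 and 65.8 CPM in the poor sums of mice M25 and M116, which came from 3 of 10 and 3 of 6 cells. Against a floor of 3 counts over all rich cells it was at least 280-fold lower in rich than in poor cells. *Tmem17* was also without a count in the control cells, and the bright sums of mice M25 and M116 had 3.43 and 6.59 CPM.

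Genes of BAG3 and of chaperone-assisted selective autophagy showed no difference past the threshold between rich and poor cells. Of 22 genes of this list 20 were tested, 4 with a positive log2 fold change and a median of -0.23, where that of all genes was -0.01. None of the 20 was past the threshold in edgeR, with or without the block, and DESeq2 called none of 21. An unadjusted p under 0.05 was reached by 1 without the block and by 2 with it, beside 5.9% and 5.1% of all genes. Scaled by library size alone, 12 of the 20 were positive with a median of 0.06, and the median within a mouse, 1 sum against 1 sum, was 0.34 for mouse M25 and -0.02 for mouse M116. The mouse gene *Bag3* itself had 196 and 170 CPM in the rich sums of mice M25 and M116 and 273 and 120 CPM in the poor sums. The order was thus opposite in the 2 mice, and the log2 fold change was -0.38 (standard error, SE, 0.43). In single cells of mouse M116 *Bag3* had a median of 155 CPM in rich and of 141 CPM in poor cells, and over the 48 dim cells of that mouse *Bag3* and the transgene had a Spearman correlation of 0.08.

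No partner or client of BAG3 on the list passed the threshold between the 2 classes. *Hspb8*, the small heat shock protein that binds BAG3, had 209 and 170 CPM in the rich sums of mice M25 and M116 and 163 and 207 CPM in the poor sums. *Hspa8*, the constitutive HSP70 of the complex, had 627 and 705 CPM in rich and 657 and 749 CPM in poor sums. *Stub1*, its ubiquitin ligase, had 44.1 and 33.1 CPM in rich and 35.2 and 24.3 CPM in poor sums. Within each mouse the rich sum was thus the higher one for *Stub1* and the lower one for *Hspa8*, the order of *Hspb8* was opposite in the 2 mice, and for none of the 3 did both rich sums lie on one side of both poor sums. *Flnc*, the client filamin C, had 45.8 and 85.1 CPM in rich and 48.8 and 97.4 CPM in poor sums, with a log2 fold change of -0.39 (SE 0.56). *Sqstm1*, the autophagy receptor p62, had 268 and 172 CPM in rich and 174 and 241 CPM in poor sums, with a log2 fold change of -0.21 (SE 0.32). *Des*, the intermediate filament desmin, was the member with an unadjusted p under 0.05 (0.0302), with 1141 and 913 CPM in rich and 1335 and 1218 CPM in poor sums and an adjusted p of 0.701 from edgeR. *Vim* had the largest positive value, 3.10 (SE 1.36), and 97.9% of its counts in the rich cells of mouse M116 came from the wells with endothelial RNA.

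The genes that flank the insertion site were looked at because the transgene lies in Rosa26. In the mouse GENCODE annotation the non-coding *Gt(ROSA)26Sor* overlaps *Thumpd3* on the opposite strand and starts next to *Setd5*. *Setd5*, which encodes a chromatin protein with a SET domain, had 89.1 and 68.5 CPM in the rich sums of mice M25 and M116 and 30.5 and 16.8 CPM in the poor sums. Both rich sums thus lay above both poor sums. The log2 fold change was 1.44 (SE 0.55) with an unadjusted p of 0.0343 and an adjusted p of 0.724 from edgeR, and 1.51 with the mouse as a block (adjusted p = 0.854 from edgeR). It was positive in 19 of 19 alternatives and past the threshold in 0.

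In single cells *Setd5* had a count in 30 of 34 rich and 4 of 6 poor cells of mouse M116, with medians of 49.3 and 5.38 CPM and highest values of 430 and 45.0 CPM. In mouse M25 the 2 rich cells held 63.4 and 113 CPM, and the 10 poor cells ran from 0 to 98.3 CPM with a median of 11.5 CPM. Rich and poor cells overlapped in both mice. On the scale of log2(CPM + 1) the difference of the means, rich minus poor, was 2.30 in mouse M116 and 3.03 in mouse M25, and within the 2 plates of mouse M116 it was 3.36 and 0.71. Without the wells with endothelial RNA it was 2.38 in mouse M116. Over the 48 dim cells of mouse M116 *Setd5* and the transgene had a Spearman correlation of 0.27. The intermediate sums had 15.6 and 17.5 CPM of *Setd5*, like the poor ones, and the bright sums had 81.2 and 49.0 CPM, like the rich ones.

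No gene of the locus passed the threshold between rich and poor cells. *Thumpd3*, which encodes a tRNA methyltransferase subunit, had 20.3 and 14.5 CPM in the rich sums and 25.2 and 5.97 CPM in the poor sums, so that the order of the sums was opposite in the 2 mice. Its log2 fold change was -0.14 without a block and 0.20 with the mouse as a block. In single cells the difference of the means of log2(CPM + 1) was 0.89 for mouse M25 and 0.28 for mouse M116. Within the 2 plates of mouse M116 that difference was 0.82 and -0.45, and without the wells with endothelial RNA it was -0.17. The difference between *Thumpd3* and *Setd5* was not tested. *Gt(ROSA)26Sor* had no count in any rich cell, and 1.99 and 0 CPM in the poor sums of mice M25 and M116. Whether reads were counted by strand is not given in the sources used here, so that reads of *Thumpd3* and of *Gt(ROSA)26Sor* cannot be told apart where the genes overlap.

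Genes of the sarcomere and of the response to stretch had a negative median, as did most lists of genes abundant in CMs. Of 18 sarcomere genes tested 3 were positive, with a median of -0.44, and of 10 stretch response genes 2 were positive, with a median of -0.52. The 13 genes of the fetal program had 4 positive members and a median of -0.39. Within mice M25 and M116, 1 sum against 1 sum and scaled by library size, where all genes had medians of 0.19 and 0.45, the medians were -0.23 and -0.04 for the sarcomere, -0.28 and -0.05 for the stretch response and -0.28 and 0.11 for the fetal program. In each of the 3 lists 2 genes had an unadjusted p under 0.05 in the fit without a block, where 5.9% of all genes did. With the mouse as a block they were 6, 2 and 2 in the same order, where 5.1% of all genes did. EdgeR, with or without the block, and DESeq2 called none.

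*Tnni1*, the slow skeletal troponin I that the heart expresses before birth, had the largest positive log2 fold change of the sarcomere genes in the fit without a block, without passing the threshold. It had 233 and 347 CPM in the rich sums of mice M25 and M116 and 76.1 and 161 CPM in the poor sums, so that both rich sums lay above both poor ones. The log2 fold change was 1.05 (SE 0.46, adjusted p = 0.873 from edgeR), and 1.08 with the mouse as a block (adjusted p = 0.420 from edgeR). In single cells of mouse M116 *Tnni1* ran from 0 to 1118 CPM with a median of 323 CPM in rich cells, and from 0 to 478 CPM with a median of 61.5 CPM in poor cells. The rich range thus covered the poor one. The difference of the means of log2(CPM + 1) was 2.17 in mouse M116 and 2.81 in mouse M25, and it was 3.58 on one plate of mouse M116 and 0.65 on the other. Over the 48 dim cells of mouse M116 *Tnni1* and the transgene had a Spearman correlation of 0.40.

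*Ankrd1*, a stretch-responsive ankyrin repeat protein of the titin spring, had a negative fold change. It had 520 and 647 CPM in the rich sums of mice M25 and M116 and 1043 and 650 CPM in the poor sums, so that the difference came from mouse M25. The log2 fold change was -0.80 (SE 0.33, adjusted p = 0.836 from edgeR). In mouse M116 *Ankrd1* ran from 31.9 to 3231 CPM with a median of 449 CPM in rich cells, and from 31.1 to 1409 CPM with a median of 525.7 CPM in poor cells, and over the 48 dim cells its Spearman correlation with the transgene was 0.01. *Nppb*, which encodes brain natriuretic peptide, had 720 and 344 CPM in rich and 872 and 342 CPM in poor sums, and differed more between the mice than between the classes.

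**Figure D3:**
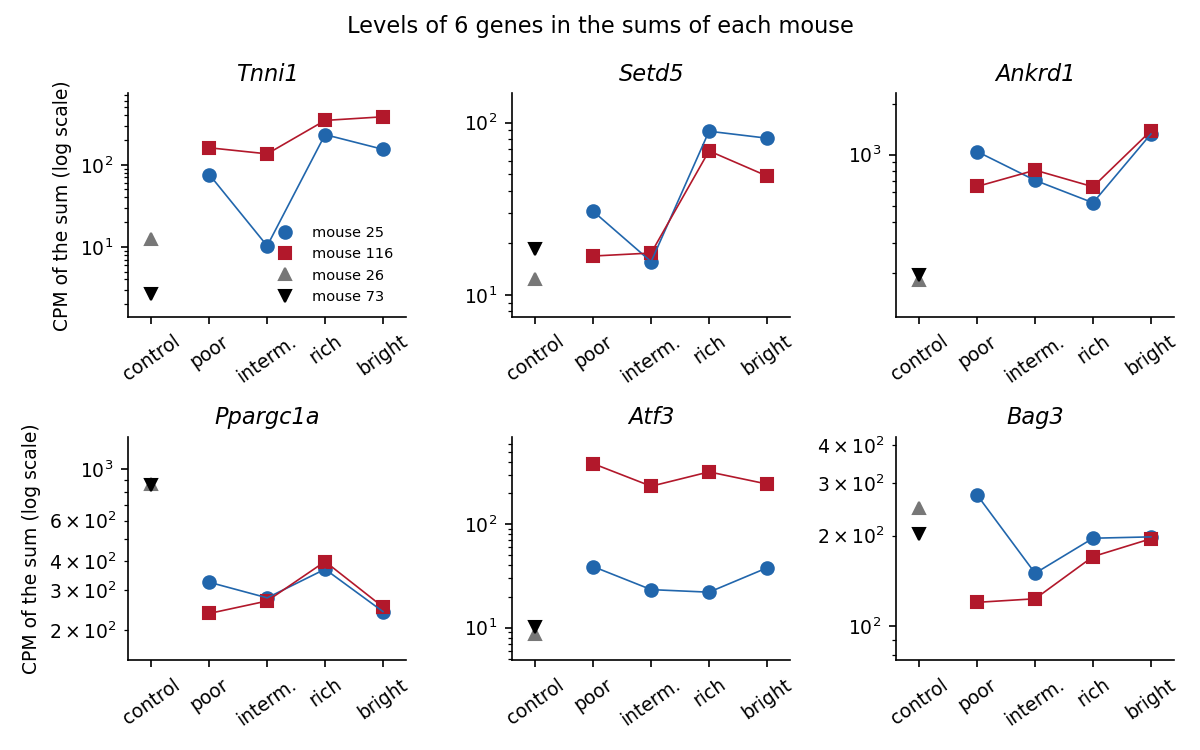
CPM of 6 genes (log scale) in the sums over control, poor, intermediate, rich and bright cells, each point being the sum of 1 mouse and lines joining the dim and bright sums of one mouse. *Setd5* and *Tnni1* are higher in both rich than in both poor sums (*Setd5* 89.1 and 68.5 against 30.5 and 16.8 CPM), *Ankrd1*, *Tnni1* and *Atf3* are higher and *Ppargc1a* is lower in all dim sums of mouse M116 than in the control sums, and *Bag3* has no order.

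No gene of energy metabolism passed the threshold between rich and poor cells. All 73 nuclear genes of oxidative phosphorylation had a negative log2 fold change, with a median of -0.46; edgeR called 0 of them with or without the block, and DESeq2 called 0. An unadjusted p under 0.05 was reached by 8 of the 73 without the block, where 5.9% of all genes did, and by 16 with it, where 5.1% did. Scaled by library size alone the median was -0.18 with 10 of 73 positive, and within a mouse it was -0.25 in mouse M25 (11 of 73 positive) and -0.09 in mouse M116 (19 of 73 positive), on a scale where all genes had medians of 0.19 and 0.45. The 8 CM markers had a median of -0.44, close to that of oxidative phosphorylation, and within the mice of -0.37 and 0.02. Of 19 genes of the tricarboxylic acid cycle 2 were positive with a median of -0.32, of 18 genes of fatty acid oxidation 2 with a median of -0.27, and of 10 mitochondrially encoded genes 0 with a median of -0.45; in these 3 lists no gene had an unadjusted p under 0.05 in edgeR without a block, and with the mouse as a block 1, 1 and 2 genes did, none of them past the threshold, and DESeq2 called none. Their medians within mice M25 and M116 were 0.07 and -0.06 for the tricarboxylic acid cycle, -0.17 and 0.11 for fatty acid oxidation, and -0.15 and -0.18 for the mitochondrially encoded genes. *Ppargc1a*, the coactivator that drives mitochondrial biogenesis, had 369 and 398 CPM in the rich sums of mice M25 and M116 and 324 and 237 CPM in the poor sums. Its log2 fold change was 0.18 (SE 0.30), and the 12 regulators of energy metabolism, with a median of -0.61 (-0.51 and 0.05 within the mice), had 2 positive members.

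Lists of protein quality control, stress and calcium handling genes also had negative medians in the fit over both mice. Of 31 proteasome genes 1 was positive, with a median of -0.44, and of 10 genes of lysosomes and autophagy 4, with a median of -0.29. Of 14 genes of the unfolded protein and integrated stress responses 5 were positive, with a median of -0.30, and of 8 calcium handling genes 2, with a median of -0.23. In the sums within mice M25 and M116, where all genes had medians of 0.19 and 0.45, those of all 4 lists lay below all genes, with -0.12 and -0.08 for the proteasome, 0.10 and 0.05 for lysosomes and autophagy, -0.08 and -0.20 for the stress responses, and -0.04 and 0.40 for calcium handling. Single cells gave 2 exceptions in the median difference of mean log2(CPM + 1), taken over widely detected genes. Calcium handling had 0.35 in mouse M116 (7 of 8 higher), against 0.04 for all such genes. Lysosomes and autophagy had 1.30 in mouse M25 (7 of 8 higher), against 0.72. The other single-cell medians of these lists lay below those of all such genes. No gene of these lists passed in edgeR, with or without the block, or in DESeq2. An unadjusted p under 0.05 was reached without the block by 1 stress response gene, and with it by 3 proteasome and 2 stress response genes. Among all genes 5.9% reached it without the block and 5.1% with it. For comparison, 0 of the 8 CM markers were positive.

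Immediate-early genes, which respond within minutes to dissociation and other stimuli, had a positive median. Of 17 tested 10 were positive, with a median of 0.38 (0.71 and 0.56 within mice M25 and M116); edgeR called 0 with or without the block, and DESeq2 called 2 of 18, where it called 1.32% of all genes. An unadjusted p under 0.05 was reached by 3 without the block and by 7 with it, beside 5.9% and 5.1% of all genes. *Egr1*, an immediate-early transcription factor, had 90.8 and 18.5 CPM in the rich sums of mice M25 and M116 and 0.997 and 0 CPM in the poor sums, and 79.2% of its counts in the rich cells of mouse M116 came from the wells with endothelial RNA. *Atf3*, a stress-induced transcription factor, had 22.1 and 322 CPM in rich and 39.0 and 386 CPM in poor sums, and differed more between the mice than between the classes. For the 12 immediate-early genes detected widely enough to be averaged over single cells, the median difference in mean log2(CPM + 1) was 1.08 for mouse M25 (8 of 12 higher in rich cells) and -0.41 for mouse M116 (5 of 12 higher), and on the 2 plates of mouse M116 it was -0.39 and 0.20. The direction thus differed between the mice and between the plates. Of 7 genes of apoptosis and the p53 response 4 were positive with a median of 0.73 (1.43 and 0.53 within the mice), 0 had an unadjusted p under 0.05, and edgeR and DESeq2 called 0.

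**Figure D4:**
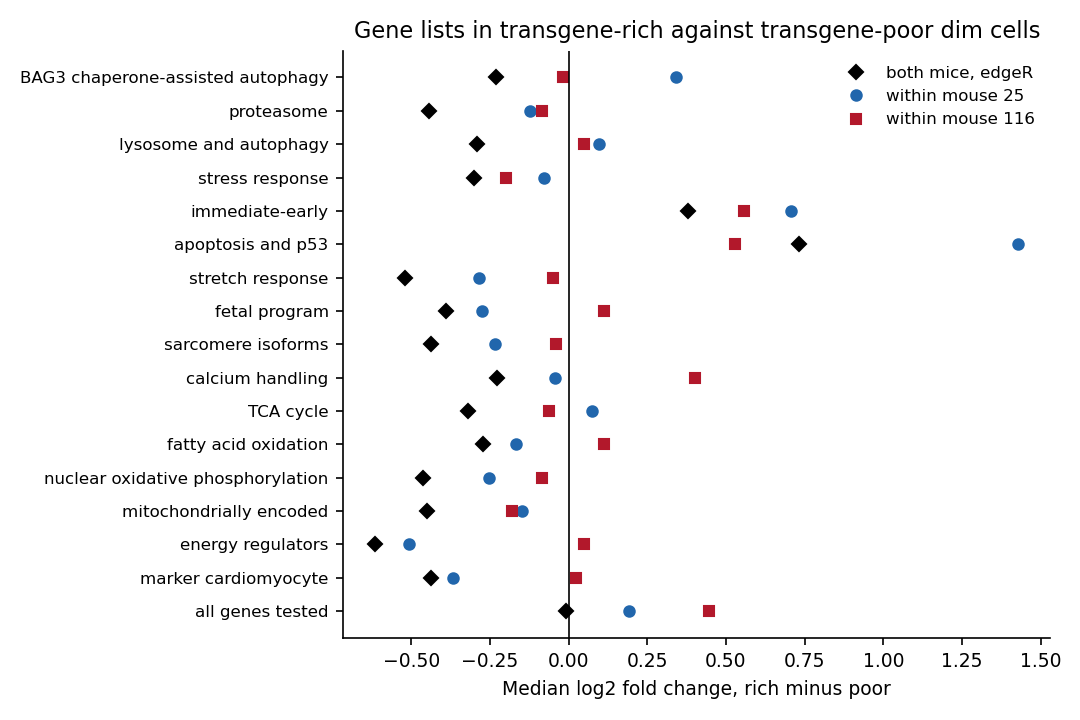
Median log2 fold change of gene lists, rich minus poor cells, in the edgeR fit over both mice (TMM factors) and within mouse M25 and mouse M116 (1 sum against 1 sum, scaled by library size, so that each set of points is read against its own point for all genes). Nuclear oxidative phosphorylation lies at -0.46, -0.25 and -0.09, and all genes lie at -0.01, 0.19 and 0.45.

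Rich and poor cells were each set beside the control CMs to see which differences from control cells are found in dim cells with and without transgene RNA. The 2 comparisons share their control sums, so that their values are given side by side and their likeness is not a result. Between rich cells and controls 1 of 11165 genes (0.00896%) was past the threshold in edgeR, higher in rich cells, 502 (4.5%) reached an unadjusted p under 0.05, and 55 (0.293%) were called with DESeq2. Between poor cells and controls 0 of 9706 genes (0%) were past it, 449 (4.63%) reached an unadjusted p under 0.05, and 165 (0.965%) were called with DESeq2. Mice M25 and M26 shared a plate, whereas M116 and M73 lay on different plates whose names share a first part. The labels name no sequencing batch, so that a block that pairs M25 with M26 and M116 with M73, here called the plate-name block, is a pairing inferred from these names. With the plate-name block, 28 genes passed for rich cells (0.251%), 11 higher and 17 lower, and 13 for poor cells (0.134%), 5 higher and 8 lower. Control mouse M73 stood apart, with *mt-Rnr2*, the large mitochondrial ribosomal RNA, at a median of 19.5% of the counts of a cell against 9.89% in control mouse M26, 9.77% in rich and 9.71% in poor cells. Without mouse M73 edgeR called 49 genes for rich and 21 for poor cells, and without mouse M26 it called 83 and 251, the lone control mouse being assumed to vary like the dim sums.

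The gene that passed in rich cells, *Gm13394*, a processed pseudogene in the mouse GENCODE annotation, was abundant in rich and in poor cells and near 0 in control cells. It was chosen after its values were seen, and its counts are uncertain because reads can be split with a parent gene. It had a count in 36 of 36 rich and 16 of 16 poor cells, and in 6 of 20 control cells of mouse M26 and 1 of 8 of mouse M73. The level was 117 and 186 CPM in the rich sums of mice M25 and M116 and 63.1 and 217 CPM in the poor sums, against 0.358 and 0.244 CPM in the control sums. The log2 fold change against controls was 8.46 (adjusted p = 0.0336 from edgeR) in rich cells and 8.65 (adjusted p = 0.132 from edgeR) in poor cells, and with the plate-name block poor cells also passed (8.13, adjusted p = 7.619e-07 from edgeR). Whether this follows strain background or the transgene was not tested.

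*Ankrd1*, *Tnni1* and *Atf3* were higher and *Ppargc1a* was lower in poor cells than in controls with the plate-name block, in cells with transgene levels under 5 CPM. Without the block, none of the 4 passed in edgeR in poor or in rich cells, and DESeq2 without a block called all 4 in poor cells, with adjusted p-values of 0.00217 (*Ankrd1*), 0.000421 (*Tnni1*), 0.00027 (*Atf3*) and 0.00731 (*Ppargc1a*). Without control mouse M73 all 4 passed in edgeR as well, with adjusted p-values from 4.37e-08 (*Atf3*) to 0.0163 (*Ppargc1a*). *Ankrd1* had 183 and 195 CPM in the control sums of mice M26 and M73 and 1043 and 650 CPM in the poor sums. With the plate-name block its log2 fold change against controls was 2.02 in poor cells (adjusted p = 0.00852 from edgeR) and 1.18 in rich cells (adjusted p = 0.327 from edgeR). *Tnni1* had 12.4 and 2.69 CPM in the control sums, and with the plate-name block its log2 fold change was 4.05 in poor cells (adjusted p = 0.0304 from edgeR) and 5.05 in rich cells (adjusted p = 4.479e-13 from edgeR). Both poor and both rich sums of these 2 genes lay above both control sums.

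*Ppargc1a* had 864 and 859 CPM in the control sums, above every dim sum. With the plate-name block its log2 fold change was -1.74 in poor cells (adjusted p = 0.0261 from edgeR) and -1.60 in rich cells (adjusted p = 0.00915 from edgeR). *Atf3* had 8.73 and 10.3 CPM in the control sums, and with the plate-name block its log2 fold change was 3.56 in poor cells (adjusted p = 0.0109 from edgeR) and 2.72 in rich cells (adjusted p = 0.0387 from edgeR). Without the wells that hold endothelial RNA, where 7 genes passed with the plate-name block (0.0758%), *Ankrd1* (2.16, adjusted p = 0.000751 from edgeR) and *Atf3* (4.62, adjusted p = 0.00058 from edgeR) were among them, and *Tnni1* (3.45, adjusted p = 0.178 from edgeR) and *Ppargc1a* (-1.55, adjusted p = 0.137 from edgeR) were not.

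*Mt1*, a metallothionein, and *Lars2*, the mitochondrial leucyl-tRNA synthetase, both chosen after their values were seen, were lower in both classes with the plate-name block. *Mt1* had 1138 and 819 CPM in the control sums, 332 and 172 CPM in the poor sums and 378 and 136 CPM in the rich sums. *Fabp4* and *Gpihbp1*, which were higher in rich than in poor cells, were lower in poor cells than in controls (log2 fold change -5.63 and -8.08 with the plate-name block), whose wells included some with endothelial RNA. In rich cells against controls the 73 nuclear oxidative phosphorylation genes had a median of -0.65, with 2 positive, and in poor cells of -0.10, with 20 positive, where all genes had 0.02 and 0.00. None passed in the fits without a block or by DESeq2. An unadjusted p under 0.05 was reached by 26 in rich and 0 in poor cells, beside 4.5% and 4.63% of all genes. With the plate-name block 29 and 3 of the 73 reached it, beside 533 of 11165 and 371 of 9706 genes. With this block 1 of the 73 passed in rich cells, *Cox7a1*, a subunit of complex IV, with 919 and 809 CPM in the rich sums of mice M25 and M116 and 2103 and 1490 CPM in the control sums (log2 fold change -1.47, adjusted p = 0.0089 from edgeR). The 8 CM markers had medians of -0.89 and -0.46 in the same comparisons without a block, and 1 of them, the calcium release channel gene *Ryr2*, was lower in rich cells with the block (-1.41, adjusted p = 0.0122 from edgeR). *Setd5* had 12.3 and 18.6 CPM in the control sums, and its log2 fold change against controls was 1.90 (SE 0.66) in rich and 0.48 (1.03) in poor cells, with an adjusted p of 0.9995 and 1 from edgeR.

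Rich dim cells were compared with bright CMs of the same mice, the class they overlap in transgene RNA. Of 12693 genes 0 (0%) were past the threshold in edgeR, 509 (4.01%) reached an unadjusted p under 0.05, and 71 (0.34%) were called with DESeq2. With the mouse as a block 1 gene (0.00788%) passed, *Hbb-bt*, a beta-globin (chosen after its values were seen), with 282 and 0.0413 CPM in the rich sums of mice M25 and M116, which goes back to the rich well of mouse M25 with erythroid markers. A bright well of mouse M25 held 573 CPM of CM markers and 50106 CPM of fibroblast markers and entered the bright sum. In the fit on the sums *Setd5* and *Tnni1* were close in the 2 classes, with log2 fold changes of 0.14 (SE 0.38) and 0.04 (0.48). The single-cell medians of both genes were lower in bright than in rich cells of either mouse.

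No stretch response gene passed the threshold in edgeR between rich dim and bright cells. Of 10 tested 1 had a positive log2 fold change, with a median of -0.95 where that of all genes was -0.09; edgeR called 0, with or without the block, 3 reached an unadjusted p under 0.05, beside 4.01% of all genes, and 2 were called with DESeq2, beside 0.34% of all genes. *Xirp2*, an actin-binding protein of the intercalated disc, had 188 and 170 CPM in the rich sums of mice M25 and M116 and 700 and 820 CPM in the bright sums, a log2 fold change of -2.20 (SE 0.23, adjusted p = 0.946 from edgeR, 0.0584 with the mouse as a block). *Ankrd1* had 520 and 647 CPM in rich and 1326 and 1385 CPM in bright sums, a log2 fold change of -1.31 (SE 0.27, adjusted p = 0.9998 from edgeR, 0.646 with the block). *Nppa* had 66.6 and 9.63 CPM in rich and 406 and 220 CPM in bright sums (adjusted p = 0.9998 from edgeR, 0.0584 with the block). For all 3 genes both rich sums lay below both bright sums. The single cells of *Nppa* did not follow this order. Its median was 66.9 CPM in the 2 rich and 12.4 CPM in the 20 bright cells of mouse M25. In mouse M116 both medians were 0 CPM, and the highest bright cell held 3339 CPM. The medians of *Ankrd1* in mice M25 and M116 were 516 and 449 CPM in rich and 655 and 781 CPM in bright cells.

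Within the samples, genes were sorted by whether rich minus poor had one sign in mouse M25 and on both plates of mouse M116. Of 5790 genes with a count in at least 50% of the rich or of the poor cells of mouse M116, 1650 had one sign, 1204 higher and 446 lower in rich cells. Chance alone makes 3 signs agree for many genes, and the share expected by chance was not computed. The count of 1650 is therefore not read as a result. Among all 5790 genes 4213 were higher in rich cells in mouse M25, and 3016 and 2931 on the 2 plates of mouse M116. This sorting follows the differences themselves and carries no test, and in mouse M25, where both rich wells held more genes than most poor ones, the median difference of all 5790 genes in mean log2(CPM + 1) was 0.72, against 0.04 in mouse M116. Among the higher genes with the largest difference in mouse M116 were *Pdcd6ip*, the ESCRT-associated protein ALIX (4.34), *Msrb2*, a mitochondrial methionine sulfoxide reductase (3.91), *Gna11*, a G protein alpha subunit (3.82), *Atp1b3*, a subunit of the sodium pump (3.58), *G3bp2*, a stress granule protein (3.55), and *Tsc2*, an inhibitor of mTORC1 (3.42). *Pdcd6ip* had a count in 27 of 34 rich and 0 of 6 poor cells of mouse M116. It thus entered the sorting through the rich cells alone. In mouse M25 it had a count in 2 of 2 rich and in 7 of 10 poor cells, so that its absence was not shared by the poor cells of both mice.

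The genes lower in rich cells by the same sorting were led by *Miga1*, a protein of mitochondrial fusion (-3.45), *Tmem17* (-3.42) and *Usp4*, a deubiquitinase (-3.25). *Usp4* had a count in 25 of 34 rich and in 6 of 6 poor cells of mouse M116, and *Miga1* in 16 of 34 and 5 of 6. *Slc25a23*, a mitochondrial carrier regulated by calcium (-2.97), and *Usp47*, another deubiquitinase (-2.72), were also among them. With 6 poor cells in mouse M116 and 2 rich cells in mouse M25, each of these differences rests on few cells on one side.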

How the data were processed

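Single CMs were sequenced with SMART-seq2, without molecular identifiers. The authors aligned reads with STAR to a mouse reference extended by the sequences of human BAG3 and eGFP, and deposited raw counts per gene for 55538 features; build, annotation and strand setting are not given in the sources used here. Every table column was used (0 left out), no 2 cells had identical counts, and no doublet caller was run on hand-picked cells. The members, limits and gene lists were chosen with earlier results of these data known. Genes named are those of the lists, up to 10 higher and 10 lower genes past the threshold with or without the block, and up to 10 of each sign in the sorting within samples; others are marked.

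Each sample is 1 cell and the mouse is the replicate, so deposited counts were summed per mouse and class (sums of 2311978 to 40502883 counts; reads of an amplified library are not independent molecules) and compared with edgeR 4.0.16 (R 4.3.3): filterByExpr, TMM, glmQLFit, glmQLFTest, Benjamini-Hochberg, threshold 0.05; hBAG and BAG-eGFP stayed in the library sizes. CPM values are counts per 1000000 of a sum or cell. Rich, poor and bright sums of a mouse come from the same animal and are paired, and the mouse block is an alternative; over 10178 genes the difference between the mice in rich and in poor cells had a Pearson correlation of 0.01, and in rich and in bright cells of 0.11. Other alternatives were DESeq2 1.42.0, other scaling, filters, limits and weights (limma 3.58.1), each sum left out in turn, and thinned cells. The scripts were tested on simulated data.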

Additional observations from a re-analysis of the deposited data

Results flagged for a closer look

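Within groups of 4 to 10 cells, 30 checks asked whether the highest or lowest cell stood far from the others by Dixon's criterion, which chance meets in about 1 of 20 groups, and 4 met it. Among the 10 poor cells of mouse M25, 1 cell had *Ankrd1* at 5.93 on the scale of log2(CPM + 1), far below the others. Among the 6 poor cells of mouse M116, 1 cell had a transgene level of 4.73 CPM, far above the others and close to the limit of 5 CPM. That level rests on 1 hBAG and 3 BAG-eGFP counts. The transgene had itself chosen the cells, so that this flag is a description. Another flag in these 6 cells was 1 cell with *Atf3* at 3.99 on the scale of log2(CPM + 1), far below the others. Among the 8 control cells of mouse M73, 1 cell had a transgene level of 4.42 CPM while the other cells had none.

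The 14 intermediate dim cells entered no comparison of classes under the limits of 50 and 5 CPM, although the correlations over the dim cells of mouse M116 include 8 of them and the alternatives with hBAG or BAG-eGFP alone count some as poor. The lowest of them, with a transgene level of 5.56 CPM, lay above the highest control cell. In their sums over mice M25 and M116, *Tnni1* had 10.3 and 136 CPM, and *Setd5* 15.6 and 17.5 CPM.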

How the results depend on the processing

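With 2 mice in each class the counts of genes past the threshold depended on the block, the tool, the filter and the sums left out. Between rich and poor cells, where edgeR called 0 genes, the mouse as a block gave 35, DESeq2 236, DESeq2 with the block 376, no filter 102, equal weight for each cell 1, limits of 100 and 1 CPM 1, and leaving out the wells with endothelial RNA, which was chosen after the data had been seen, 3. Leaving out one sum gave 3 (without the rich cells of mouse M25) to 166 (without those of mouse M116), with 70 without the poor cells of mouse M25 and 118 without those of mouse M116. In each such fit the lone mouse is assumed to vary like the other class.

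Between rich cells and controls, against 1 gene, the plate-name block gave 28, DESeq2 55, no filter 36, leaving out wells with endothelial RNA 10, and leaving out one sum 9 (rich cells of mouse M25) to 83 (control mouse M26). Between poor cells and controls, against 0, the plate-name block gave 13, DESeq2 165, no filter 37, all groups in one fit 1, the plate-name block without wells with endothelial RNA 7, and leaving out one sum 10 (poor cells of mouse M116) to 251 (control mouse M26). Between rich and bright cells, against 0, the mouse as a block gave 1, DESeq2 71, no filter 133, and leaving out one sum 0 to 85 (bright cells of mouse M116). The cause of these changes was not tested. The edgeR fits without the mouse block made no call between classes of the same mice under the main settings, so that the block had none to end.

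Of 415 values of list medians under alternatives, 170 moved by more than the spread between the mice. Scaling by library size, all groups in one fit, thinned cells, hBAG or BAG-eGFP alone and no minimum on genes left the count between rich and poor cells at 0. The smallest sums are the rich class of mouse M25, whose 2 cells hold 2311978 counts, control mouse M73, with 4096122, and the poor class of mouse M116, whose 6 cells hold 4526102; beyond thinning, depth as a limit was not tested.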
